A study of Ambystoma mexicanum with 7 samples.

Results

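The nerve and Schwann cell miRNAs examined here were 10 names (miR-338, miR-338-3p, miR-338-5p, miR-219, miR-9, miR-124, miR-128, miR-128a, miR-128b and miR-138) of 2618 miRNA names printed on either of 2 microarray platforms. The names were picked for their known link with nerve and glia, with earlier results of these data known, and no measured value entered the rule: a probe or reporter was a member where a vertebrate entry of its name equalled one of the 10 names once the species prefix was removed. This found 13 of 2021 named probes on the Exiqon arrays, where all 10 names were present, and 27 of 1974 named reporters on the LC Sciences arrays, where 8 names were present. Both platforms received total RNA from the limbs of the same 3 white axolotls (Ambystoma mexicanum), animals 368, 369 and 378. The stump samples were taken from the hindlimb at amputation (0 days post amputation, dpa) and held whole skin, bone, muscle and nerve fibres together. The blastema samples were the mid-bud regeneration outgrowths that the same animals had formed at 17 dpa; the sources state no other treatment of either group. Exiqon hybridised each of the 6 samples in the Hy3 channel against a pool of all samples in Hy5, and LC Sciences hybridised the blastema and the stump of 1 animal together on each of 3 arrays. The probes carry miRNA sequences of other species, so each name stands for the axolotl RNA that bound that probe.

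A peripheral nerve in the limb holds axons, whose cell bodies lie outside the limb, and the Schwann cells that wrap them. miR-338 and miR-219 are known in mammals from glia that make myelin, where miR-219 and the 3′ arm of miR-338 (miR-338-3p) promote the maturation of oligodendrocytes in the central nervous system. The miR-338 gene lies within an intron of AATK, a kinase gene of neurons, in mammals. miR-9 and miR-124 are classic miRNAs of neurons and their progenitors, miR-124 being among the most abundant miRNAs of the mammalian brain. miR-128 is enriched in brain and is also made in skeletal muscle, and miR-138 acts at synapses and in axon growth in rodents. Limb regeneration in salamanders depends on the nerve, which regrows into the blastema from the stump.

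The results turned on miR-338-3p, its partner arm miR-338-5p and miR-128. Sequences of the Exiqon probes are not shown, and the match of probes to axolotl miRNAs was not checked. The target sequences below are those of the LC Sciences reporters with these names. They are written from 5′ to 3′ as deposited, with the seed (bases 2 to 8, which pair with target mRNAs) in capitals.
hsa-miR-338-3p: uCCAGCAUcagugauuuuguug
hsa-miR-338-5p: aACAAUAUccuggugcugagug
gga-miR-128: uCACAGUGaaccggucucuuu
dre-miR-128: uCACAGUGaaccggucucuuuu
The target of hsa-miR-338-3p was identical in the fish (dre-miR-338) and frog (xtr-miR-338) reporters, and no reporter outside the members shared its seed. The miR-128 target of 21 nucleotides was common to the chicken (gga), human (hsa) and opossum (mdo) reporters. The fish (dre) and frog (xtr) reporters carried 22 nucleotides, with 1 more U at the 3′ end. Reporters with an identical target read the same RNA and are repeat measurements, not independent miRNAs.

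The brightest of the 7 negative control probes on each Exiqon array lay between 116 and 128 Hy3 intensity units. Of the 13 member probes, 9 exceeded that level on all 3 blastema arrays and 10 on all 3 stump arrays, and 3 exceeded it on none of the 6. Over all 2021 named probes, 45.3% did so on the 3 blastema arrays and 44.7% on the 3 stump arrays. Of 380 probes that name plant miRNAs only, 41.3% and 39.5% did so, so a brightness above these controls is a weak sign that the named RNA was present. With the mean of the negative controls plus 3 SD as the level, 4 member probes passed in all blastemas and 5 in all stumps, against 28.4% and 29.0% of all named probes and 23.7% and 22.9% of the plant probes. Total signal over the named LC Sciences reporters lay between 583766 and 719753 units in the 6 samples, and between 489 and 576 reporters reached a signal of 32, the lowest signal that is taken as detected on this platform. The 2 Exiqon arrays of animal 368 had more spots that the scanner software marked as poor (1584 for blastema and 1209 for stump) than the other 4 arrays (186 to 214).

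**Figure D1:**
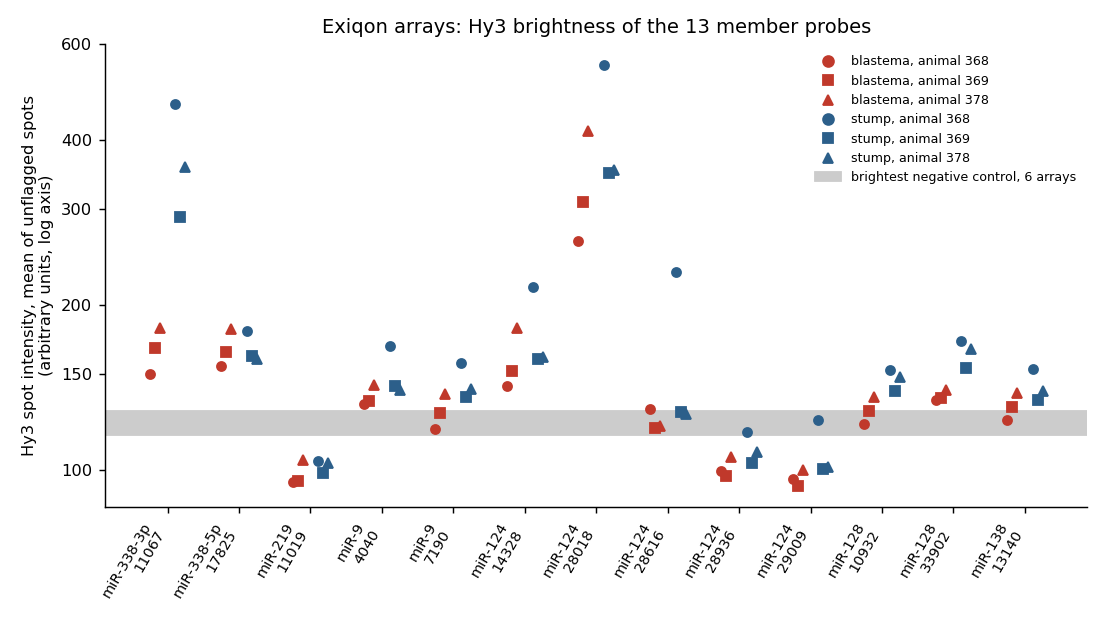
Hy3 spot intensity (log axis) of the 13 member probes on the Exiqon arrays, with the probe number under each name, 1 point per sample (red, blastema; blue, stump; the marker gives the animal) and a grey band for the brightest negative control over the 6 arrays. The miR-338-3p probe lies between 150 and 182 in the blastemas and between 290 and 467 in the stumps, and most other probes lie close to the band.

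Among the glial miRNAs, miR-338-3p was lower in the blastema on the Exiqon arrays, by 2.73-fold. Its Hy3 intensity was 150, 167 and 182 in the blastemas of animals 368, 369 and 378, and 467, 290 and 358 in their stumps. All 3 stumps were brighter than all 3 blastemas, and every sample was above its array's negative controls. Of the probes that name plant miRNAs only, 17.6% to 20.5% were brighter than miR-338-3p in the blastemas and 3.42% to 4.47% in the stumps. Its blastema signal is thus a weak sign that the RNA was present there. The log2 ratio of Hy3 to the reference pool was -0.88, -0.80 and -1.07 in blastema and 0.60, 0.32 and 0.66 in stump. The ratios of the groups did not overlap, as was so in this direction for 18.9% of the 2015 probes tested. The log2 difference, blastema minus stump, was -1.45 (SE 0.13, 95% interval -1.74 to -1.15, n = 3 and 3), with adjusted p = 0.00014 by limma with Benjamini-Hochberg adjustment over all probes tested. It was lower in 3 of 3 animals, with differences of -1.48, -1.12 and -1.74. The exact two-sided permutation test of the 6 ratios gave p = 0.1, the smallest that 3 against 3 samples allow. The limma p ranked 15 among the 2015 probes. Of all probes tested, 10.9% were called lower (220) and 9.13% higher (184), where called means an adjusted p under 0.05. In a bulk sample, fewer cells that make a miRNA and less of it per cell cannot be told apart.

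Probes that name plant miRNAs only, a comparison chosen after seeing the data, were called as well. Of the 378 tested, 52 were called, 37 higher and 15 lower, and none of those 15 was lower by as much as miR-338-3p. Outside the plant names, the probe headed by the fly name dme-miR-14 differed by -1.31, against -1.45 for miR-338-3p. miR-338-3p was also the member of smallest p, which favours it in such a comparison. Spike-ins are synthetic RNAs added to each labelling reaction, and 5 of them had probes as bright as that of miR-338-3p. They lay 0.31 to 0.86 log2 units higher in blastema after the loess normalization and 0.00 to 0.25 higher after centring on the median. With that centring, miR-338-3p differed by -1.60.

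On the LC Sciences arrays miR-338-3p was not detected in either group. The 4 reporters for it read between 2 and 31 in the 24 measurements, all under the signal of 32. The human reporter read 19, 11 and 12 in blastema and 16, 20 and 10 in stump, and the frog reporter read 4, 9 and 21 in blastema and 31, 11 and 13 in stump. The groups overlapped for all 4 reporters. Before normalization, on the array of animal 368, the spots of these 4 reporters had a median of 47.6 in the stump channel, where the spots of reporters under 32 in both samples had a median of 44.2. All 8 spots (44.9 to 49.5) were above that median, and their own median was at percentile 90.0 of those spots. In the blastema channel the medians were 313 and 310. In the stump channel, the spot medians of miR-219, miR-9, miR-138 and miR-338-5p were at percentiles 30.8, 38.8, 39.1 and 42.6. The miR-338-3p reporters did not reach the limit for the test on LC Sciences, so the lower level seen by Exiqon was not tested there.

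The opposite arm, miR-338-5p, was close to equal in the 2 groups on Exiqon. Its Hy3 intensity was 155, 165 and 181 in blastema and 180, 161 and 160 in stump, above the negative controls in all 6. The samples of the groups overlapped, and the log2 difference was 0.05 (SE 0.10, 95% interval -0.19 to 0.28, adjusted p = 0.829). The interval of miR-338-5p lies wholly above that of miR-338-3p, though the difference between the arms was not tested. The miR-338-5p probe was about as bright as that of miR-338-3p in the blastemas (150, 167 and 182). That brightness was a weak sign that the RNA was present, so equal signals are weak evidence of an equal level. After centring on the median in place of loess, the difference of miR-338-5p was -0.31 (adjusted p = 0.142). Its LC Sciences reporter read 10, 11 and 10 in blastema and 9, 15 and 8 in stump, below detection throughout.

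miR-219, the other glial miRNA, was not detected on either platform. Its Exiqon probe read 95.3, 95.5 and 104 in blastema and 104, 98.6 and 103 in stump, below the brightest negative control on all 6 arrays. The log2 difference was 0.01 (SE 0.17, 95% interval -0.36 to 0.39, adjusted p = 0.973). The 4 LC Sciences reporters read between 0 and 21 in 24 measurements. A level under these limits could not be measured in either tissue, so a difference in miR-219 is not detectable here.

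Of the members linked with neurons, only miR-128 could be tested on both platforms. On LC Sciences it was lower in the blastema by about 3-fold. The opossum reporter mdo-miR-128 read 112, 83 and 84 in the blastemas of animals 368, 369 and 378 and 281, 291 and 285 in their stumps. The chicken reporter gga-miR-128 read 111, 85 and 122 in blastema and 321, 339 and 324 in stump. The human reporter hsa-miR-128 read 172, 108 and 109 in blastema and 366, 422 and 329 in stump. Each of these 3 reporters, with the same target of 21 nucleotides, had all stumps above all blastemas and was lower in blastema in 3 of 3 animals. The log2 differences were -1.63 (SE 0.21, adjusted p = 0.0012) for mdo-miR-128, -1.65 (SE 0.22, adjusted p = 0.00124) for gga-miR-128 and -1.55 (SE 0.26, adjusted p = 0.00305) for hsa-miR-128, by limma over the 500 reporters tested. As folds these were 3.10 (95% interval 2.19 to 4.40), 3.13 (2.18 to 4.49) and 2.93 (1.91 to 4.49).

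The reporters with 22 nucleotides changed in the same direction. The fish reporter dre-miR-128 read 27, 39 and 43 in blastema and 105, 91 and 101 in stump. The frog reporter xtr-miR-128 read 13, 36 and 65 in blastema and 111, 71 and 134 in stump. In both, the blastema of animal 368 lay under 32 and was set to 32 for the test, so that the differences of -1.39 (SE 0.21, adjusted p = 0.00208) and -1.27 (SE 0.36, adjusted p = 0.0256) are smaller in size than the signals themselves would give. With the floor at 64 in place of 32 they were -0.63 for dre-miR-128, still called, and -0.66 for xtr-miR-128, with the call lost (adjusted p = 0.0775). These were the only 5 of the 27 member reporters that reached the limit of 32 in all 3 samples of a group, and all 5 were called lower. Over the 500 reporters tested, 48.2% were called, 22.4% lower and 25.8% higher, and in 31.8% every blastema lay below every stump. All 5 member reporters are for miR-128, with targets that differ at most by a final U, so beside these shares they stand for the same miRNA. Passing the limit only through the stump, where the signal is high, favours a lower call, and this applies to the dre-miR-128 and xtr-miR-128 reporters.

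**Figure D2:**
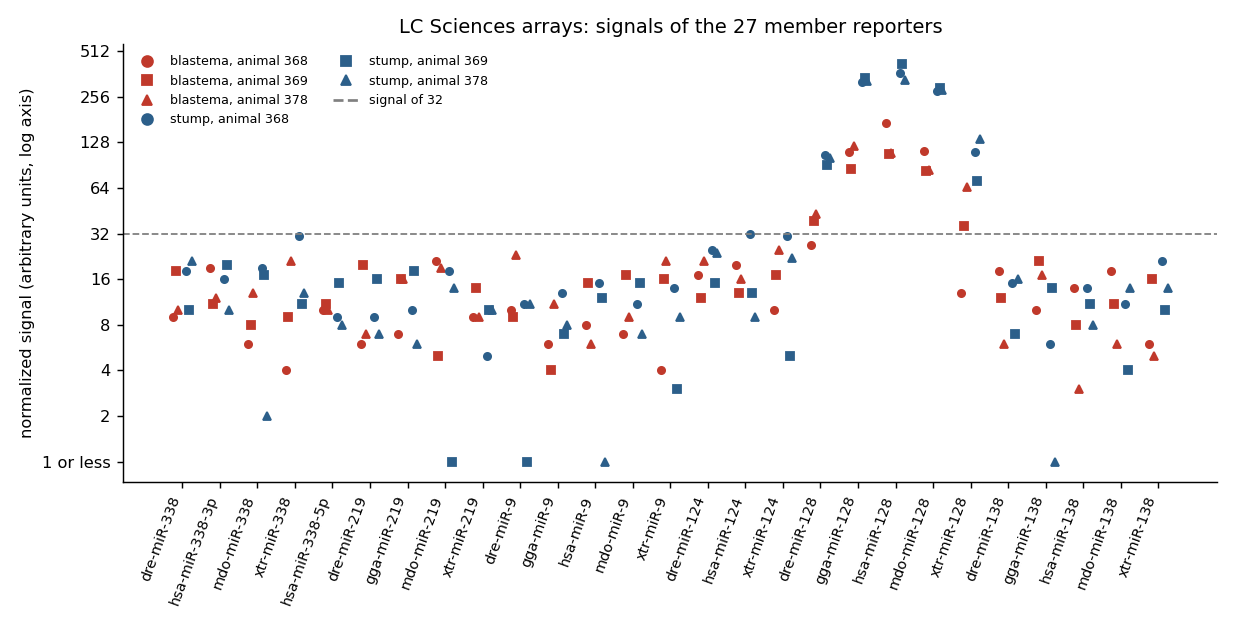
Normalized signal (log axis, arbitrary units) of the 27 member reporters on the LC Sciences arrays, 1 point per sample, with a dashed line at the signal of 32 and values of 0 and 1 drawn at the bottom. The 5 miR-128 reporters lie between 71 and 422 in the stumps and between 13 and 172 in the blastemas, and the other 22 reporters lie at or under 32.

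The array of animal 368 had the opposite dye arrangement. Without this animal, mdo-miR-128 (-1.79), gga-miR-128 (-1.70), hsa-miR-128 (-1.78) and dre-miR-128 (-1.23) stayed past the threshold, and xtr-miR-128 (-1.01, adjusted p = 0.131) did not. The remaining arrays share a dye arrangement, so tissue and dye cannot be told apart on them. Without animal 369, hsa-miR-128 (-1.34, adjusted p = 0.0648) and xtr-miR-128 (-1.42, adjusted p = 0.0922) missed the threshold. By the test that the methods name, after Benjamini-Hochberg adjustment, xtr-miR-128 missed it too (adjusted p = 0.087). On this platform the spike-in reporters read 7.5 times higher in blastema after the company's normalization, and with each sample centred on them the 5 differences ran from -4.55 to -4.18. That centring moves the difference of every reporter down alike. With it, 428 of the 500 reporters tested were called, against 241 without it, so the larger size is not particular to miR-128. Reporters with a GC content within 5 percentage points of the miR-128 targets (327 tested) had a median difference of -0.10, and 22.9% of them were called lower.

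On Exiqon the miR-128 difference had the same sign and was smaller. Probe 10932, which lists the fish and frog names first, had Hy3 intensities of 122, 128 and 136 in blastema and 152, 139 and 148 in stump. Probe 33902, which lists the human name first, read 134, 136 and 140 in blastema and 172, 154 and 167 in stump. Each stump was above each blastema on both probes, in Hy3 and in log2 ratio, and 18.9% of all probes tested had such ratios. All 12 values were above the brightest negative control of their array. The stricter level, the mean of the negative controls plus 3 SD, was 134 to 145 over the arrays. At that level probe 10932 passed in no blastema and not in every stump. Probe 33902 passed in every stump but not in every blastema, so both probes lay close to the limit of detection. The log2 difference was -0.37 (SE 0.10, 95% interval -0.60 to -0.13, adjusted p = 0.0351) for probe 10932 and -0.31 (SE 0.12, 95% interval -0.58 to -0.05, adjusted p = 0.105) for probe 33902. The call of probe 10932 was lost with animal as a block (adjusted p = 0.0788), with median centring (adjusted p = 0.124) and without any 1 animal (adjusted p = 0.131 to 0.171). The call of probe 33902 was gained under 5 of 12 alternatives. The animals' differences ran from -0.46 to -0.23 over these 2 probes and from -2.0 to -0.98 over the 5 LC Sciences reporters. The 2 platforms thus gave the same direction in 3 of 3 animals with sizes that did not overlap, and they were normalized separately, so the sizes were not tested against each other.

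**Figure D3:**
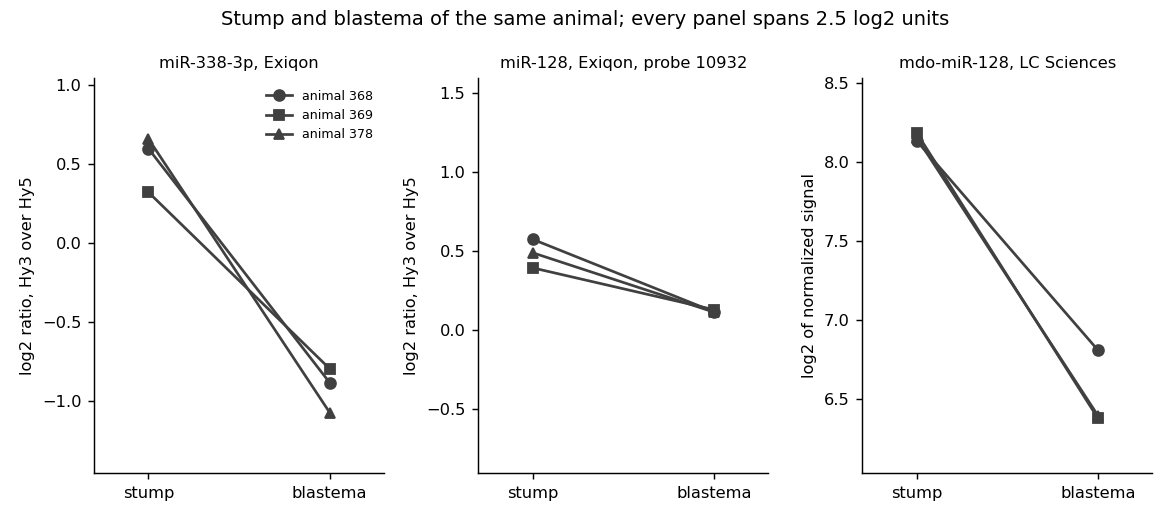
Stump and blastema of each animal joined by a line, for miR-338-3p and miR-128 probe 10932 on Exiqon (log2 ratio of Hy3 over Hy5) and for mdo-miR-128 on LC Sciences (log2 of normalized signal). All 9 lines fall from stump to blastema, with differences of -1.74 to -1.12 for miR-338-3p, -0.46 to -0.27 for miR-128 on Exiqon and -1.81 to -1.33 for mdo-miR-128.

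miR-124, the best known miRNA of neurons, was measured by 5 Exiqon probes that did not behave alike. Probe 28018, named for the frog and for the older mammalian name miR-124a, read 263, 308 and 416 in blastema and 548, 349 and 354 in stump. Its log2 ratios differed by -0.07 (SE 0.10, 95% interval -0.29 to 0.16, adjusted p = 0.735) while its Hy5 intensity, that of the reference pool, was 402 to 640 over the 6 arrays. Centred on the median in place of loess, the difference of this probe was -0.54 (adjusted p = 0.0561). Probe 14328, headed by the human name, read 142, 152 and 182 in blastema and 216, 160 and 161 in stump, with overlapping groups and a difference of -0.14 (SE 0.12, adjusted p = 0.506).

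Probe 28616, headed by the mouse name, was called lower in blastema, and 1 sample stood apart in it. It read 130, 120 and 121 in blastema and 230, 128 and 127 in stump, so that the stump of animal 368 alone was well above the others. The log2 difference was -0.59 (SE 0.16, 95% interval -0.94 to -0.23, adjusted p = 0.0265). The call was lost without animal 368 (-0.45, adjusted p = 0.0522), without animal 378 (adjusted p = 0.168), with Hy3 alone (adjusted p = 0.572) and by the test that the methods name, after Benjamini-Hochberg adjustment (adjusted p = 0.138). Probes 28936 and 29009, which list sea squirt names first, read between 93.6 and 124. They were under the brightest negative control on all 6 arrays, with differences of -0.20 (adjusted p = 0.485) and -0.45 (adjusted p = 0.248).

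These miR-124 probes share species names, so they do not stand for separate miRNAs. The 3 LC Sciences reporters for miR-124 read between 5 and 32, with 1 of 18 measurements reaching 32 (hsa-miR-124 in the stump of animal 368) and overlapping groups in all 3. Before normalization, on the array of animal 368, the miR-124 spots had a median of 52.7 in the stump channel, at percentile 98.4 of the spots of reporters under 32 in both samples. In the blastema channel the median of the miR-124 spots was 331, against 310 for the spots of those reporters. A percentile was computed for the stump channel alone. There the spot medians of miR-219, miR-9, miR-138 and miR-338-5p were at percentiles 30.8 to 42.6. No miR-124 reporter reached the limit in all 3 samples of a group, so none was tested.

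miR-9, another miRNA of neural progenitors and neurons, was near the negative controls on Exiqon and under the limit on LC Sciences. Probe 7190, headed by the human name, read 119, 127 and 138 in blastema and 157, 136 and 140 in stump, and probe 4040, headed by the mouse name, read 132, 134 and 143 against 169, 142 and 140. The differences were -0.35 (SE 0.15, adjusted p = 0.156) and -0.12 (SE 0.16, adjusted p = 0.707), and in both the stump of animal 368 had the highest value. The 5 LC Sciences reporters for miR-9 read between 0 and 23 in all 30 measurements.

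miR-138, a miRNA of synapses and axons, gave a like picture. Its Exiqon probe read 123, 131 and 138 in blastema and 153, 134 and 140 in stump, just above the negative controls in all 6, with overlapping groups and a log2 difference of -0.16 (SE 0.11, 95% interval -0.42 to 0.09, adjusted p = 0.408). The 5 LC Sciences reporters read between 0 and 21 in 30 measurements. The 3 of them that carry the chicken, opossum and frog names have a target of only 17 nucleotides, against 23 for the human reporter, and all of them were under the limit.

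Across the 13 Exiqon probes, 3 were called lower in the blastema (miR-338-3p, 1 of 5 for miR-124 and 1 of 2 for miR-128) and none higher by limma (also none at an unadjusted p under 0.05, by limma or by the test that the methods name), where 20.0% of all probes were called in either direction and 10.9% were called lower. A count of 3 of 13 is close to the 20.0% called in either direction. It is above the 10.9% called lower, but 13 probes are too few to read a difference from that share. The difference was below 0 for 11 of 13, and the median was -0.20 against 0.00 over all probes tested. In 7 of 13 every blastema lay below every stump, against 18.9% of all probes. These 7 do not stand for 7 miRNAs, since several are for miR-124 and both miR-128 probes are among them. They include miR-124 probe 29009, under the brightest negative control on every array, and probe 28018, with a difference of only -0.07. The miR-338-3p probe was the only one called under every one of its 13 alternative settings, with log2 differences from -1.61 to -1.12 and adjusted p from 5.88e-05 to 0.0229. Over the 22 LC Sciences reporters other than those of miR-128, 1 of 132 measurements reached 32, against 27.2% of the measurements of all named reporters. The groups overlapped in all 22, but signals this low cannot show whether the levels were alike.

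**Figure D4:**
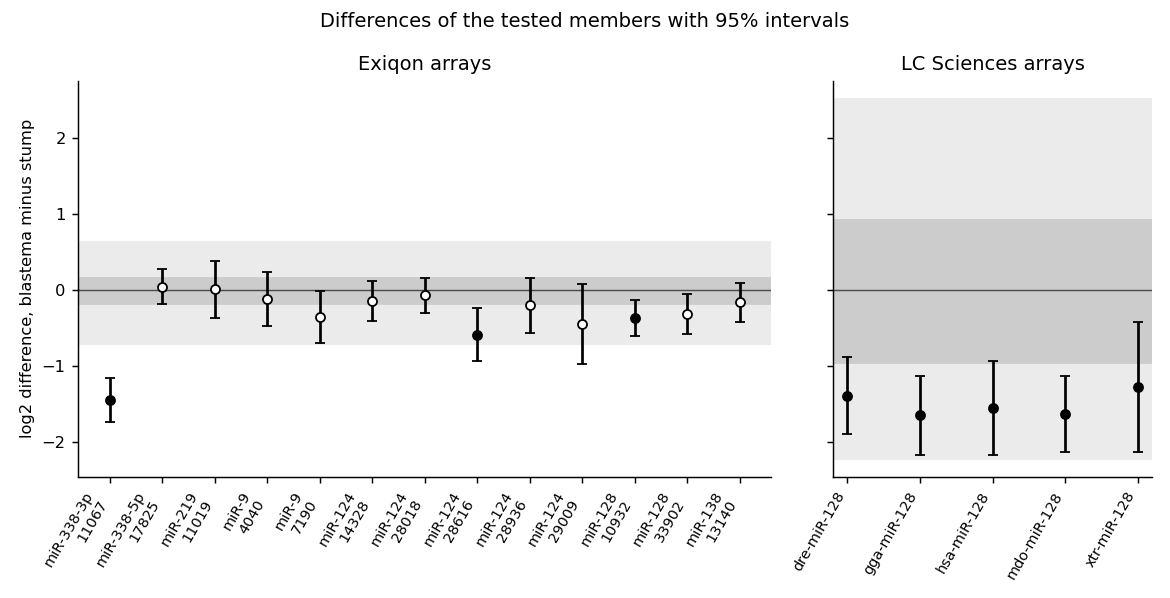
Log2 difference, blastema minus stump, of the 13 Exiqon probes and the 5 tested LC Sciences reporters with 95% intervals (filled, adjusted p under 0.05), over the middle 50% (dark grey) and the 5th to 95th percentiles (light grey) of all probes tested on each platform. miR-338-3p, at -1.45, lies outside the 5th percentile of Exiqon (-0.71), and the miR-128 reporters, at -1.65 to -1.27, lie inside the 5th percentile of LC Sciences (-2.22).

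Other miRNAs linked with neurons and sensory nerves (miR-7, miR-96, miR-129, miR-132, miR-134, miR-137, miR-153, miR-182, miR-183, miR-212 and miR-218) did not share one direction. Of 23 Exiqon probes with these names, 1 was called lower, 1 higher and 21 neither, with a median difference of -0.06. Over all probes tested, 10.9% were called lower and 9.13% higher, so these counts are not above that background. miR-218, a miRNA of motor neurons in vertebrates, read 127, 130 and 135 in blastema and 183, 143 and 152 in stump, and was lower in blastema by 0.42 log2 units (difference -0.42, SE 0.12, adjusted p = 0.0351). miR-129-5p, which is known from mammalian brain, read 223, 216 and 240 in blastema and 186, 165 and 157 in stump, and was higher in blastema (difference 0.83, SE 0.13, adjusted p = 0.00163). In both, the groups did not overlap, as was so for 18.9% of all probes tested in the lower direction and 16.4% in the higher. Related probes were not called by limma: miR-129-3p differed by -0.08 (adjusted p = 0.813) and miR-218b by -0.23 (adjusted p = 0.249). The LC Sciences reporter hsa-miR-129-5p read 10, 22 and 9 in blastema and 22, 19 and 1 in stump, below detection throughout. No miR-218 reporter could be tested on that platform. Among them, dre-miR-218a read 17, 31 and 30 in blastema and 48, 39 and 28 in stump. The reporter hsa-miR-218 read 19, 16 and 11 in blastema and 25, 13 and 15 in stump. On LC Sciences, 4 of 51 reporters with these names could be tested, all for miR-182, and none was called by limma, nor passed an unadjusted p of 0.05 by limma or by that test (differences from -0.27 to 0.31).

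The stump and the blastema also differed in miRNAs of other limb tissues, which lie beside every result above. On Exiqon all 11 probes for the muscle miRNAs (miR-1, miR-206, miR-133a, miR-133b and miR-499) were lower in the blastema, with a median of -2.51, and their summed Hy3 intensity was 1776 to 8182 in blastema and 34702 to 58158 in stump. All 3 probes of cartilage miR-140 (median -2.44) and all 3 of endothelial miR-126 (median -1.05) were lower as well. Of the blood miRNAs (miR-451, miR-223 and miR-142-3p), 1 of 5 probes was higher and 4 were not called (median 0.67). Of the epidermal miRNAs (miR-203 and miR-205), 2 of 3 probes were lower and 1 was not called (median -0.41). On LC Sciences, 11 of 26 muscle reporters tested were called lower and 15 were not called (median -1.83), and their summed signal was 4148 to 41668 in blastema and 102114 to 114722 in stump. The miR-133a and miR-133b reporters differed by -1.89 to -1.31, and those of miR-1, miR-206 and miR-499 by -4.92 to -2.71. All 4 miR-126 reporters were lower there (median -1.54), and 10 of 11 tested blood reporters were higher (median 1.97). Of 7 epidermal reporters, 3 were higher and 4 not called (median 0.28, opposite in sign to Exiqon). Those of miR-205 differed by 1.84 to 1.90 and those of miR-203 by -0.18 to 0.28. No reporter of miR-140 could be tested. miR-128 is known in muscle as well as in nerve, and the part of muscle, vessel, skin or blood content in the results of miR-128 and miR-338-3p was not tested.

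**Figure D5:**
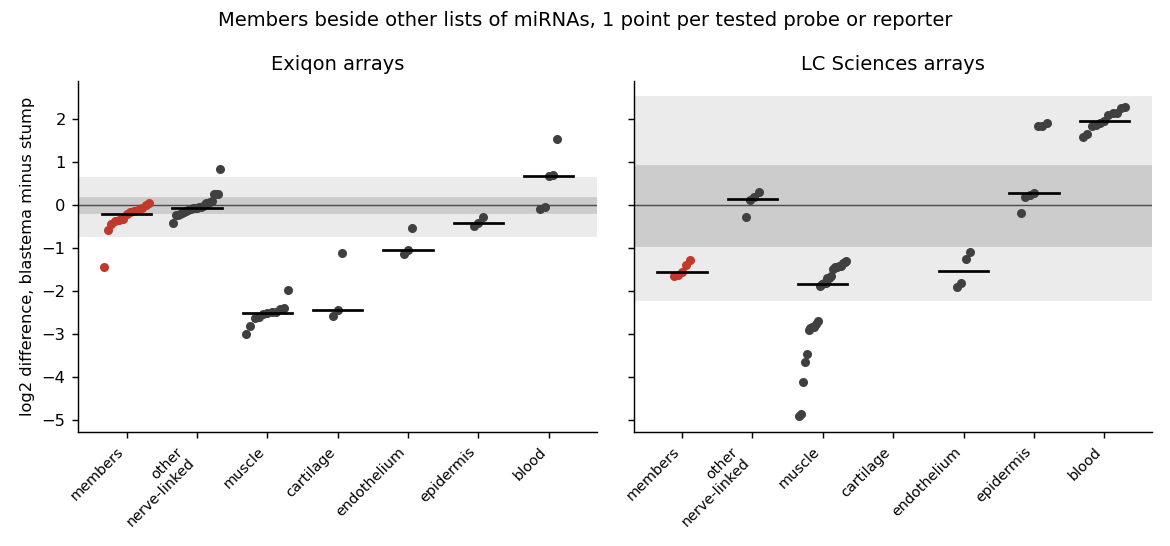
Log2 difference, blastema minus stump, of each tested member (red) beside the other nerve-linked miRNAs and miRNAs of muscle, cartilage, endothelium, epidermis and blood, with bars at the medians and grey bands for the middle 50% and the 5th to 95th percentiles of all probes tested. On Exiqon the member median is -0.20 and the muscle median -2.51, and on LC Sciences the medians are -1.55 and -1.83. The 5 members tested on LC Sciences are all reporters for miR-128, so their median describes that miRNA alone.

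The probes whose 6 values were most like those of miR-338-3p on Exiqon, after each probe was centred on its own mean, were named sme-miR-133 (root mean square difference 0.10), dme-miR-14 (0.10) and dre-miR-133c (0.14), of 1996 compared with a median of 0.76. The reporters most like mdo-miR-128 on LC Sciences were mdo-miR-10b (0.07), xtr-let-7c (0.14) and dre-miR-10b (0.17), of 495 compared with a median of 0.98. These are likenesses over 6 samples of 2 groups, and any probe with a difference of about the same size between the groups comes close in this measure.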

How the data were processed

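Stump and 17 dpa blastema RNA of the same 3 axolotls was measured on 2 platforms. The deposited Exiqon scanner values are spot intensity in each channel from ImaGene, not normalized by the authors, and the deposited Exiqon log2 ratios are those of the authors after normexp and loess. For LC Sciences, the deposited values are linear intensity, normalized by the company. Columns of fold changes and p-values deposited by the authors were not used. For Exiqon, log2 ratios were computed with normexp (offset 10) and loess in limma 3.58.1 under R 4.3.3, flagged spots were dropped, and the remaining spots, of 4 per probe, were averaged. They differed from the authors' ratios by a median of 0.0095 over 2567 values. Their correlation between blastema and stump arrays was 0.38 to 0.65 (2009 probes), and that of the deposited ratios was -0.68 to -0.32 (380 probes). These correlations cover unlike sets of probes. The direction was kept as Hy3, the channel of the sample, over Hy5, the channel of the pool. A probe was tested where at least 50% of its spots exceeded local background by 2 SD on all 3 arrays of a group (2015 of 2021). LC Sciences signals were set to a floor of 32 before log2, and 500 of 1974 reporters with 32 or more in all 3 samples of a group were tested. Both tests used limma with Benjamini-Hochberg adjustment, without pairing. Same-numbered samples come from the same animal, which the labels state. The correlation of their deviations was -0.035 to -0.007 on Exiqon and -0.047 to 0.167 on LC Sciences. Single values were also compared by exact two-sided permutation, which with 3 against 3 cannot go below p = 0.1. Precision is limited by the number of arrays. The named genes were every member, the other nerve-linked miRNAs past the threshold, and the 3 names nearest in pattern to the member of smallest p on each platform. The members and lists were chosen with earlier results of these data known. Alternatives were other background corrections, normalizations, filters and floors, a block for the animal, the t-test named in the methods, and leaving out each animal. The comparison with plant probes and the centring on spike-ins were chosen after seeing the data.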

Additional observations from a re-analysis of the deposited data

How the results depend on the processing

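Of 210 repeats of single members under alternative settings, 185 kept the direction and the side of the threshold. Exiqon calls among the 13 members numbered 3, and 1 to 2 when each animal in turn was left out. They were 1 by the methods' t-test at its unadjusted limit, and 1 with the deposited ratios, which hold 2 member probes. With animal as a replicate block 2 members were called on Exiqon (337 probes in all) and all 5 on LC Sciences (231 reporters in all). Beyond miR-128 probe 10932 on Exiqon, the block changed no member's call. Over all probes, Exiqon calls were 404, and 183 to 373 with an animal left out. By the methods' t-test they were 316 after Benjamini-Hochberg adjustment and 87 at its unadjusted limit of 0.001. LC Sciences called 5 member reporters, 3 without the filter on dim reporters (hsa-miR-128 and xtr-miR-128 were lost) and 3 to 5 with an animal left out. It called 4 with the floor at 64 and 4 by the methods' t-test after Benjamini-Hochberg adjustment, xtr-miR-128 being lost in both. Over all reporters it called 241, 79 without the filter, 105 to 195 with an animal left out, 143 by the methods' t-test at its unadjusted limit and 428 when centred on the spike-ins. Detected Exiqon members fell from 9 to 4 in blastema and from 10 to 5 in stump at the stricter level. The sign turned for 4 small differences that were not called: miR-338-5p with median centring (-0.31), miR-219 with Hy3 alone (-0.018) and without animal 378 (-0.22, in a range of -0.22 to 0.14 with an animal left out), and miR-9 probe 4040 without animal 368 (0.016, in a range of -0.21 to 0.016). The cause was not tested.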

Other observations

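Names close to the members, such as the star strands of miR-9 and miR-124, miR-124a, miR-9b, the invertebrate forms and miR-219-1-3p, were outside the rule. On LC Sciences 17 such reporters read at most 35, with 4 of their measurements at 32 or more and none detected in all 6 samples. The highest was gga-miR-124b, at 35 in the stump of animal 368 and 17 in its blastema. On Exiqon 15 such probes read at most 161 Hy3 units, 4 were above the negative controls on all 6 arrays, and none was called by limma, with 3 at an unadjusted p under 0.05 by limma and 1 by the t-test named in the methods.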
